A study of Mus musculus with 27 samples.

Results

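MicroRNAs (miRNAs) of wild-type mouse left ventricle were compared 7 days after transverse aortic constriction (TAC), in which a tie around the aortic arch makes the ventricle pump against a raised pressure, and after a sham operation. The 9 libraries were taken by the genotype, the operation and the kind of RNA in their labels, out of 16 miRNA libraries and 27 libraries in the whole series. They are WT TAC 1, 2, 17, 19 and 20 and WT sham 6, 7, 13 and 15, each from the left ventricle of an adult FVB mouse. The other 7 miRNA libraries, 4 from caPI3Kalpha TAC and 3 from caPI3Kalpha sham hearts, entered the same fit. Those hearts carry a constitutively active phosphoinositide 3-kinase alpha, whose promoter is not given in the sources used here. Each library was numbered as an animal, and nothing else in the labels separates biological from technical spread.

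A miRNA is cut as 1 arm of a hairpin transcript and guides the silencing complex to messenger RNAs that pair with its seed, bases 2 to 8. MiRNAs that share a seed can act on the same messages. In the heart, miR-1 and miR-133a mark muscle, miR-208a, miR-208b and miR-499 lie within myosin heavy chain genes, and miR-21 is known to be raised in failing and fibrotic myocardium.

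The deposited table lists 421 miRNAs, of which 8 had no read in any library and 28 had none in a WT library. Counted reads ran from 3419653 to 7301488 in WT TAC and from 3114229 to 6205989 in WT sham libraries. After a filter on low counts 262 miRNAs were tested, and they held at least 99.99% of the reads of every library. The filter needs enough reads in only some of the libraries. A miRNA scarce in WT sham can thus enter through libraries where it is higher, which favours a positive change. Values below are CPM, reads scaled to a common library size with TMM factors, which align the bulk of miRNAs between libraries and ran from 1.08 to 1.18 in WT TAC and from 0.867 to 0.953 in WT sham. The factors of the groups did not overlap, so the scaling moves every change: with library totals alone the median log2 change of all tested miRNAs was 0.27, against −0.04 with TMM, a shift of 0.31. The libraries form 2 sets by the way their columns are named: WT TAC 1 and 2 and WT sham 6 and 7 in the first, and WT TAC 17, 19 and 20 and WT sham 13 and 15 in the second. The labels do not say what the sets are, and 133 miRNAs differed between them in a fit with group and set. As a check of the labelled tissue, the muscle list summed to at least 69469.7 CPM in every WT TAC and 89713.8 CPM in every WT sham library. The epithelial miR-200a, miR-200b, miR-200c and miR-429 were too low to be tested. Another epithelial marker, miR-141, was tested, with a mean of 10.7 CPM in WT TAC and 11.8 CPM in WT sham.

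Mature sequences of the miRNAs on which the results turn are shown 5′ to 3′ with the seed in capitals, from RefSeq on mouse GRCm38.p6. The first are miRNAs that rose after TAC and partners of the same seed that did not pass the test, shown because seed partners moved differently.
miR-21: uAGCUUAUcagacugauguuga
miR-146b: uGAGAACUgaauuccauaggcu
miR-146a: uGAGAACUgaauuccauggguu
miR-208b: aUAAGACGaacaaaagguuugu
miR-208a-3p: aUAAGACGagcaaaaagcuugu
miR-34b-5p: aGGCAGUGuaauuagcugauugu
miR-34a: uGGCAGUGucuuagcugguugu
miR-34b-3p: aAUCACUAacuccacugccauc
miR-214: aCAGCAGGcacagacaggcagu
miR-127: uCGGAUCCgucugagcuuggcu
miR-410: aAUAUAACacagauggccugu
miR-541: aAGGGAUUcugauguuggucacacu

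The second are miRNAs that were lower after TAC, shown because several of them share a seed.
miR-30a: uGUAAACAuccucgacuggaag
miR-30c: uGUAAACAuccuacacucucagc
miR-30e: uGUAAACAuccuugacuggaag
miR-181a: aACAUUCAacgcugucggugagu
miR-181c: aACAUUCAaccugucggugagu
miR-101a: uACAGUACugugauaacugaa
miR-192: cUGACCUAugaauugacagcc

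Positions count from 1 at the 5′ end, with the base of the first-named miRNA before the position and that of its partner after it. MiR-146b and miR-146a are of equal length and differ at 2 positions, A18G and C21U, both outside the seed. MiR-208b and miR-208a-3p differ at 3, A10G, G16A and U18C, and miR-30e and miR-30a at 1, U13C. How the authors' mapping treated reads that match such pairs is not given in the sources used here, so the split of reads within a pair is uncertain. By its RefSeq hairpin, miR-21 lies at chr11:86584120-86584141 on the minus strand within the span of Vmp1. MiR-208b lies at chr14:54975710-54975731 on the minus strand within Myh7, and miR-208a-3p at chr14:54949072-54949093 on the minus strand within Myh6. MiR-146b lies at chr19:46342790-46342811 on the plus strand, and its hairpin overlaps the predicted gene Gm36493. MiR-214 lies at chr1:162223438-162223459 on the plus strand, overlapping Dnm3 and the noncoding Dnm3os.

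Of the 262 miRNAs, 34 rose (13% of those tested) and 19 fell (7.25%) in WT TAC against WT sham, by edgeR's quasi-likelihood test at an adjusted p under 0.05. A 2-fold change was reached by 25 of the 34 rises and 0 of the 19 falls. The median WT sham level was 10.5 CPM for the miRNAs that rose, 5068 CPM for those that fell and 48.3 CPM for all tested; that level is also the denominator of the change, so these medians are a description of the called miRNAs only. Summed over the 34 rises, the mean level was 21313 CPM in WT TAC and 6995 CPM in WT sham. Summed over the 19 falls it was 202962 CPM in WT TAC and 284842 CPM in WT sham. Groups did not overlap for 30 of the 34 rises and 15 of the 19 falls. Over all 262 tested, 34 miRNAs were higher in every WT TAC than in every WT sham library (13%) and 21 were lower (8.02%). All 53 calls were also made by DESeq2 and with a term for the library set, which called 48 higher (18.3%) and 53 lower (20.2%). Scaled by library totals instead, 57 miRNAs were higher (21.8%) and 3 lower (1.15%), and the 57 hold all 34 rises. Without WT sham 7, 21 miRNAs rose (7.95%).

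**Figure D1:**
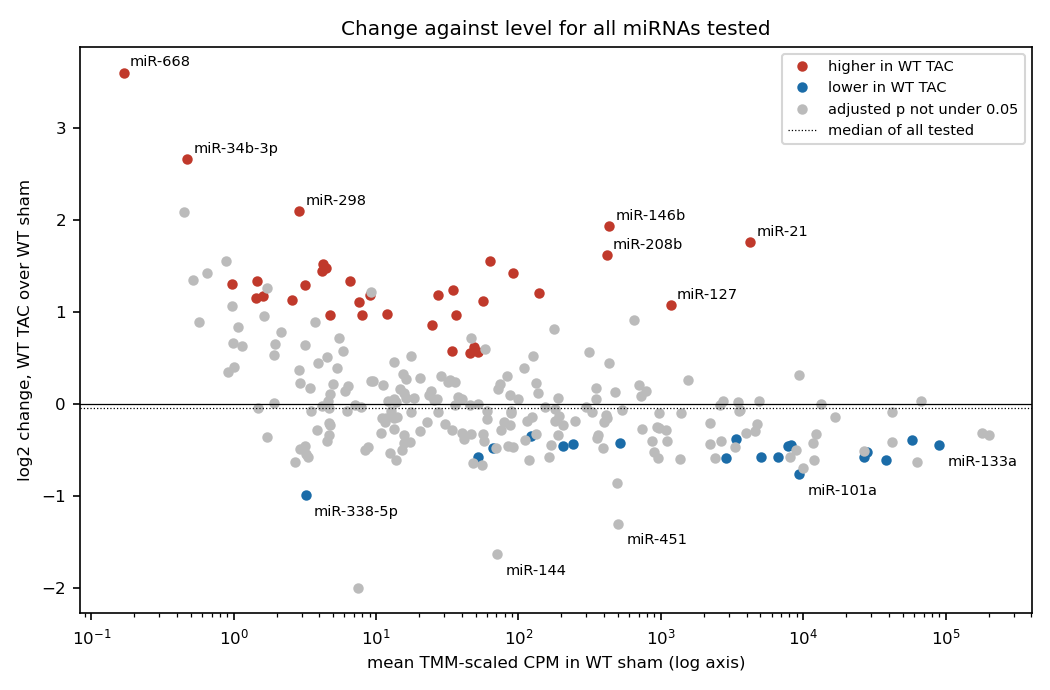
Each point is 1 of the 262 miRNAs, placed by its mean TMM-scaled CPM in WT sham (log axis) and its log2 change in WT TAC over WT sham; coloured points have an adjusted p under 0.05. The x axis is the denominator of the change; called rises lie mostly at low and called falls mostly at high levels, with miR-21, miR-146b, miR-208b and miR-127 as abundant miRNAs that rose.

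Values per library are given in the order WT TAC 1, 2, 17, 19 and 20 and WT sham 6, 7, 13 and 15. MiR-146b, which with miR-146a is induced by NF-kappaB signalling and acts on adaptors of that pathway, stood at 1922, 1649.6, 1616, 1728 and 1335 CPM in WT TAC, against 484, 414, 379.6 and 453 CPM in WT sham. Every WT TAC heart was above every WT sham heart, and the log2 change, 1.93 (SE 0.18, adjusted p = 3.93e-06), had the smallest p of all tested. Its seed partner miR-146a had 614, 908, 675, 1144 and 739 CPM in WT TAC, against 704, 641, 705 and 781 CPM in WT sham, and the groups overlapped. The change was 0.20 (SE 0.19, adjusted p = 0.488) on the log2 scale. In mean level the order of the pair was reversed: miR-146b averaged 1650.0 ± 212 CPM in WT TAC (SD, n = 5) and 433 ± 45.7 CPM in WT sham (SD, n = 4), while miR-146a averaged 816 ± 214 CPM in WT TAC (SD, n = 5) and 708 ± 57.5 CPM in WT sham (SD, n = 4).

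MiR-21, known from mouse and human hearts as a miRNA of fibroblasts and of the stressed myocardium, had 19937, 17149, 11447, 10444 and 12669 CPM in WT TAC, against 5213, 4406, 3895 and 3446 CPM in WT sham. All 5 WT TAC hearts were high, WT TAC 1 and 2 highest, and the groups did not overlap. The log2 change was 1.76 (SE 0.24, adjusted p = 0.000117). It was 2.05 within the first set and 1.77 within the second. Counted as a share of all miRNA reads, miR-21 made up 1.63% ± 0.462 in WT TAC (SD, n = 5) and 0.39% ± 0.0733 in WT sham (SD, n = 4). In whole tissue a change in the number of cells of a type and a change in the amount per cell cannot be told apart.

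MiR-208b, encoded in an intron of Myh7, the gene of the slow beta myosin heavy chain, had 1386, 1646, 1338, 1134 and 886 CPM in WT TAC, against 523, 459, 373 and 314 CPM in WT sham. The 2 groups stood clear of each other in both sets. On the log2 scale the change was 1.61 (SE 0.38, adjusted p = 0.00742). The partner miR-208a-3p, from Myh6, the gene of the fast alpha myosin heavy chain of adult mouse ventricle, had 869, 1000.4, 893, 795 and 603 CPM in WT TAC, against 1094, 1262, 867 and 1161 CPM in WT sham. It changed by −0.40 (SE 0.17, adjusted p = 0.122), and its groups overlapped. The level of miR-208b stood above that of miR-208a-3p in 5 of 5 WT TAC hearts and in 0 of 4 WT sham hearts, with the reservation on shared reads given above.

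**Figure D2:**
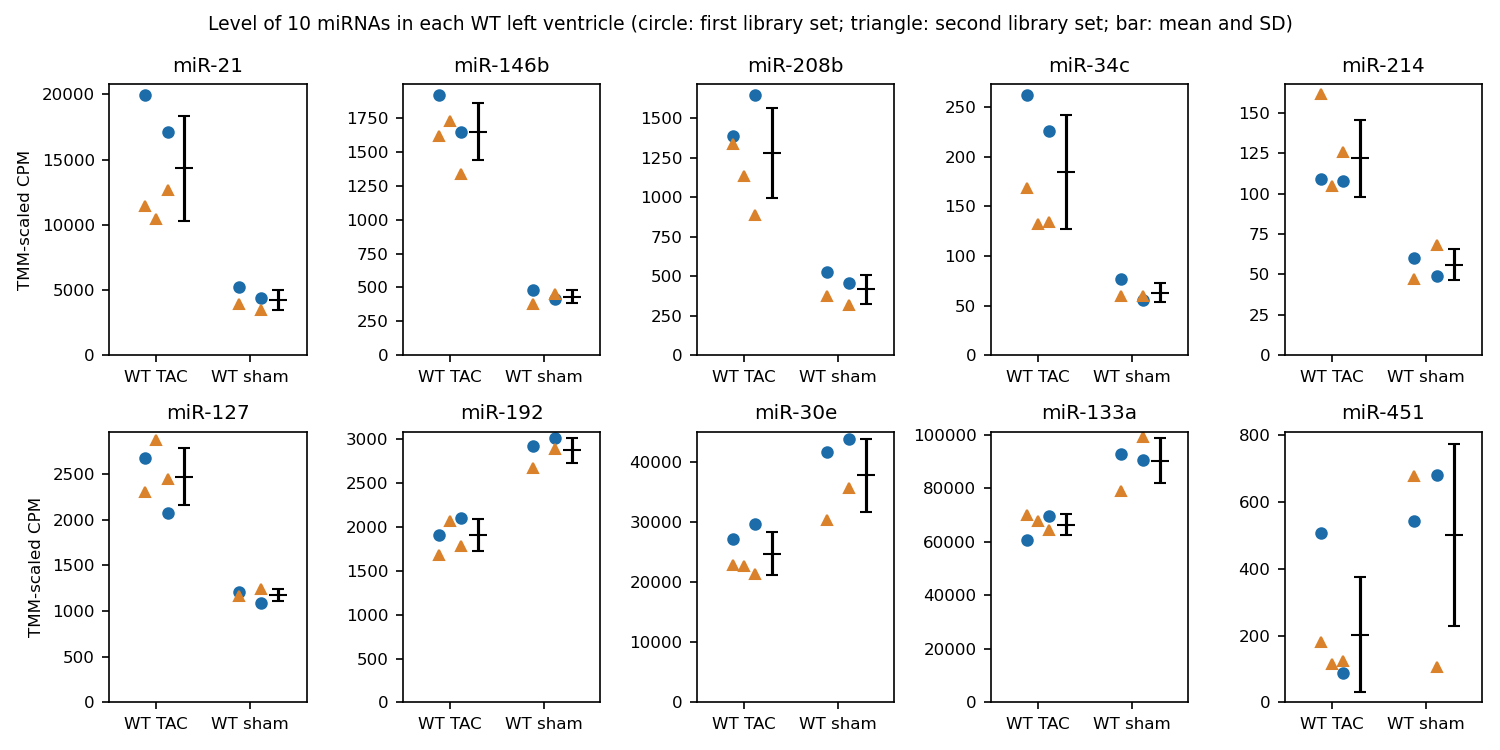
TMM-scaled CPM of 10 miRNAs in each WT TAC (left) and WT sham (right) heart; circles are the first library set, triangles the second, and bars give the mean and SD. The groups do not overlap for miR-21, miR-146b, miR-208b, miR-34c, miR-214, miR-127, miR-192, miR-30e and miR-133a, while for miR-451 they overlap and WT TAC 1 and WT sham 15 lie apart from the rest of their groups.

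The miR-34 family, transcribed in response to p53 and known for restraining the cell cycle, had 6 members in the table. Of the 4 that were tested 3 rose and 0 fell, beside 13% and 7.25% of all tested. Their median log2 change was 1.42, against −0.04 for all tested. MiR-34c had 262, 226, 168, 132 and 134 CPM in WT TAC, against 77.1, 55.1, 59.5 and 59.6 CPM in WT sham, with a log2 change of 1.55 (SE 0.25, adjusted p = 0.000318). Every WT TAC heart was at least 1.72 times the highest WT sham heart. MiR-34b-5p, cut from the neighbouring hairpin, had 11.7, 9.64, 5.99, 4.52 and 6.02 CPM in WT TAC, against 2.68, 2.65, 3.38 and 3.88 CPM in WT sham. It changed by 1.29 (SE 0.32, adjusted p = 0.00897), and without WT sham 7 it was 1.27 with an adjusted p of 0.052. The other arm, miR-34b-3p, was counted by few reads: 97 over the 5 WT TAC libraries and 9 over the 4 WT sham libraries, a depth-adjusted ratio of 6.62 (95% interval 3.35 to 14.9, counting error only). It was scarce in WT sham and could pass the filter through libraries where it was higher, so its place among the 3 rises is a description only. MiR-34a, from another chromosome, had 30.8, 29.4, 24.1, 20.2 and 21.8 CPM in WT TAC, against 17.8, 13.5, 17.2 and 22.2 CPM in WT sham and a log2 change of 0.52 (SE 0.18, adjusted p = 0.0562), which did not pass the test, although with the set term it was called at 0.53 (adjusted p = 0.0225).

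The most numerous rises came from the imprinted Dlk1 to Dio3 region of chromosome 12, a domain whose miRNAs are transcribed from the maternal chromosome and are best known from embryo and brain. The table lists 50 of them, of which 26 passed the count filter and 24 were too low. Of the 26 tested, 15 rose and 0 fell, beside 13% and 7.25% of all tested. A positive change was seen in 25 of the 26, beside 121 of all 262 tested. The median log2 change of the 26 was 1.12, against −0.04 for all tested. These counts and the median include members scarce in WT sham, which could pass the filter through libraries where they were higher. Examples are miR-382 (mean 1.69 CPM in WT TAC and 0.446 CPM in WT sham) and miR-380-3p (2.03 and 0.974 CPM). For such members a positive change is favoured by the filter, so the counts are a description only. The summed level of the 26 ran from 3157 to 3991 CPM in WT TAC and from 1611 to 1763 CPM in WT sham. By library totals 20 rose, with a median of 1.43, beside 21.8% of all tested. With the set term 22 rose, beside 18.3%. Within the first set 15 rose, with a median of 1.32, beside 11.1% of all tested. Within the second 13 rose, with a median of 1.10, beside 11.8%.

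MiR-127, cut from the transcript antisense to the retrotransposon-like gene Rtl1, was the most abundant of them, with 2675, 2074, 2301, 2874 and 2441 CPM in WT TAC, against 1213, 1084, 1166 and 1238 CPM in WT sham. The groups did not overlap, and its log2 change was 1.07 (SE 0.15, adjusted p = 0.000117). MiR-411 had 372, 303, 283, 324 and 323 CPM in WT TAC, against 149, 155, 138 and 116 CPM in WT sham, and its log2 change was 1.20 (SE 0.19, adjusted p = 0.000306). MiR-541 had 231, 192, 244, 279 and 285 CPM in WT TAC, against 85.1, 70.3, 120.3 and 92.9 CPM in WT sham, with a log2 change of 1.42 (SE 0.21, adjusted p = 0.000258). MiR-410 had 104, 80.9, 74.8, 69.7 and 79.3 CPM in WT TAC, against 34.1, 28.5, 32.1 and 43.8 CPM in WT sham, with a log2 change of 1.24 (SE 0.16, adjusted p = 0.000102). In these 4 miRNAs every WT TAC heart was above every WT sham heart. The other members that rose were miR-379, miR-134, miR-431, miR-433, miR-341, miR-300, miR-299, miR-409-3p, miR-434-5p, miR-673-5p and miR-668, with log2 changes between 0.96 and 1.52 apart from miR-668. The call of miR-673-5p was lost without any 1 of the 9 libraries (log2 change 0.85 to 1.07, adjusted p up to 0.136, here and below over all fits that leave out 1 library), and that of miR-433 without any of 5 libraries (WT sham 6 or 7, WT TAC 17, 19 or 20; 0.92 to 1.32, adjusted p up to 0.108). MiR-668 rested on 47 reads over the WT TAC libraries and 2 over the WT sham libraries, both in WT sham 13. The depth-adjusted ratio was 14.4 (95% interval 3.78 to 123, counting error only), and the call was lost without WT sham 6, 7 or 15 (adjusted p up to 0.0812). MiR-136, antisense to Rtl1 like miR-127, had the only change not above 0, at −0.02 (SE 0.23, adjusted p = 0.969). It averaged 35.7 ± 9.08 CPM in WT TAC (SD, n = 5) and 36.0 ± 10.0 CPM in WT sham (SD, n = 4). Within the first set its change was 0.13 and within the second 0.23.

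In genomic order the rises were found all along the region. RefSeq places 25 of the 26 tested miRNAs on the plus strand, in 2 stretches that lie 97.6 kb apart. The first stretch spans 39.5 kb and holds 11, of which 6 rose, with a median log2 change of 1.07. The second begins 137.1 kb after the first hairpin, ends at 171.7 kb and holds 14, of which 8 rose, with a median of 1.16. Of all tested, 13% rose, and the median was −0.04. The hairpins of miR-410 and miR-541 overlap Mirg, a long noncoding gene of the region. All 11 of the first stretch and all 14 of the second had a positive change in both library sets. Members scarce in WT sham, such as miR-668 and miR-382, are among them, with the reservation on the filter given above.

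**Figure D3:**
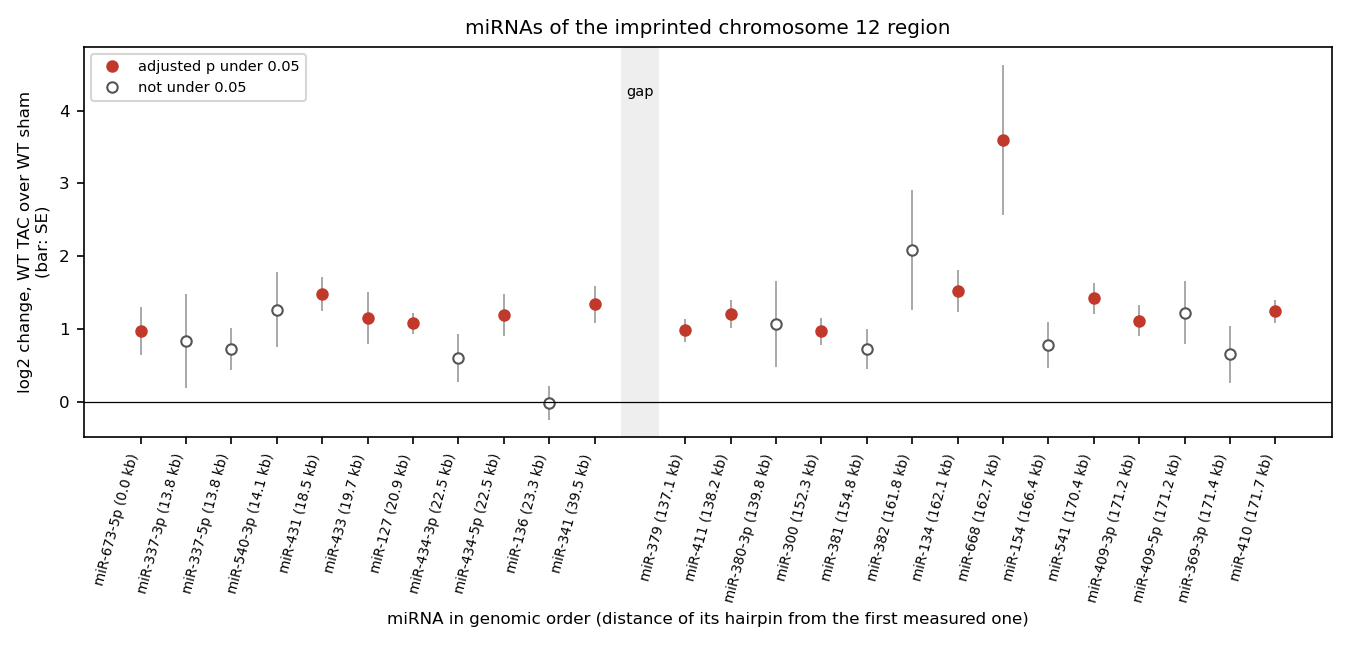
Log2 change in WT TAC over WT sham, with its SE, for the 25 miRNAs of the chromosome 12 region placed by RefSeq, in genomic order; filled points have an adjusted p under 0.05 and the grey band marks the 97.6 kb gap. All but miR-136 lie above 0, in both stretches, and miR-668 and miR-382 have the widest errors.

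Elsewhere in the genome, neighbouring miRNAs moved together in some clusters and not in others. There were 32 clusters with hairpins within 10 kb on the same strand and at least 2 tested members. Whether the members of a cluster share a transcript was not tested. Among them, the chromosome 9 cluster of miR-34b and miR-34c had 3 of 3 tested products higher, beside 13% of all tested. On chromosome 1, miR-214 and miR-199a-5p share the transcript Dnm3os, known from mesenchymal cells and fibroblasts. MiR-214 had 109, 108, 162, 105 and 125 CPM in WT TAC, against 60.3, 48.9, 47.3 and 67.9 CPM in WT sham and rose by a log2 change of 1.12 (SE 0.19, adjusted p = 0.000537). MiR-199a-5p, which has a second hairpin elsewhere, averaged 1221 ± 336 CPM in WT TAC (SD, n = 5) and 650.5 ± 275 CPM in WT sham (SD, n = 4). Its log2 change of 0.91 (SE 0.34, adjusted p = 0.0722) did not pass the test, although it was called with the set term and within each set, with 0.92 in the first and 1.38 in the second. On chromosome 3, miR-15b rose by 0.62 (SE 0.17, adjusted p = 0.0194), while its neighbour miR-16 had a log2 change of 0.03 (SE 0.19, adjusted p = 0.936). MiR-16 has another hairpin on chromosome 14, so its count does not show the product of the chromosome 3 hairpin alone. On the X chromosome miR-222, known to act on the cell cycle inhibitor p27, rose by 0.56 (SE 0.15, adjusted p = 0.0151), while miR-221 of the same seed had −0.04 (SE 0.15, adjusted p = 0.898). MiR-15b lost its call without WT sham 6, 7 or 15 or WT TAC 19 (0.55 to 0.72, adjusted p up to 0.0715), and miR-222 without WT sham 7 or WT TAC 17 or 19 (0.48 to 0.64, adjusted p up to 0.0679).

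The remaining rises were of scarce or single miRNAs. MiR-130b had 15.2, 9.38, 10.4, 10.9 and 10.4 CPM in WT TAC, against 4.46, 3.32, 5.07 and 3.88 CPM in WT sham and a log2 change of 1.44 (SE 0.23, adjusted p = 0.000306), while miR-130a, of the same family and far more abundant, averaged 811 ± 51.6 CPM in WT TAC (SD, n = 5) and 972 ± 19.7 CPM in WT sham (SD, n = 4). MiR-298 had 16.3, 13.7, 16.03, 6.92 and 9.35 CPM in WT TAC, against 3.21, 4.42, 3.04 and 0.832 CPM in WT sham, with a log2 change of 2.09 (SE 0.39, adjusted p = 0.00116). MiR-142-3p, a miRNA of blood cells, averaged 50.3 ± 6.24 CPM in WT TAC (SD, n = 5) and 33.9 ± 7.88 CPM in WT sham (SD, n = 4). It changed by 0.57 (SE 0.18, adjusted p = 0.0379), its groups overlapped, and the call was lost on leaving out any library but WT sham 13 (0.47 to 0.73, adjusted p up to 0.151). MiR-125b-1-3p rose by 0.86 (SE 0.29, adjusted p = 0.0446) with overlapping groups, and its call was lost without WT sham 6, 7 or 15 or WT TAC 17, 19 or 20 (0.67 to 1.05, adjusted p up to 0.135). MiR-324-3p rose by 1.17 (SE 0.35, adjusted p = 0.0257) on 98 reads over WT TAC and 27 over WT sham libraries, and its call was lost without WT sham 6, 7 or 13 or WT TAC 17, 19 or 20 (0.95 to 1.49, adjusted p up to 0.0934). The naming rule did not take 6 rises, which are named after their values were seen to complete the count: miR-299, given above with the chromosome 12 region, miR-184 (1.19), miR-455 (0.97), miR-140 (0.56), miR-671-5p (1.34) and miR-3096-5p (1.31), each as a log2 change. MiR-671-5p was counted by 101 reads in WT TAC and 26 in WT sham, and miR-3096-5p by 63 reads in WT TAC and 16 in WT sham.

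The 19 falls included 4 members of 1 seed family. The miR-30 family, among the most abundant in heart and known to act on connective tissue growth factor, had 5 members tested. Of these 4 fell and 0 rose, beside 7.25% and 13% of all tested. Their median log2 change was −0.45, against −0.04 for all tested. MiR-30e had 27231, 29739.8, 22861, 22643 and 21391 CPM in WT TAC, against 41626, 43796, 30324 and 35692 CPM in WT sham. On the log2 scale it changed by −0.61 (SE 0.16, adjusted p = 0.012) and the groups did not overlap, with WT sham 13 nearest to the WT TAC hearts. MiR-30d had 19310.1, 22938, 17831, 18439.8 and 18418 CPM in WT TAC, against 28258, 28914, 26391 and 27851 CPM in WT sham, with a log2 change of −0.52 (SE 0.12, adjusted p = 0.00586). MiR-30c averaged 5741 ± 221 CPM in WT TAC (SD, n = 5) and 7866 ± 736 CPM in WT sham (SD, n = 4), with a log2 change of −0.45 (SE 0.12, adjusted p = 0.0172). MiR-30a averaged 44015 ± 3667 CPM in WT TAC (SD, n = 5) and 57687 ± 3639.7 CPM in WT sham (SD, n = 4), with a log2 change of −0.39 (SE 0.12, adjusted p = 0.0264). MiR-30b, with −0.41 (SE 0.14, adjusted p = 0.0542), did not pass the test. Summed, the 5 members ran from 88341 to 105306 CPM in WT TAC and from 119502 to 141467 CPM in WT sham. With the set term all 5 fell, beside 20.2% of all tested. By library totals 0 of the 5 passed the test, where 1.15% of all tested fell. The family's median by library totals was −0.14, so the falls of this family depend on the scaling.

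Under both scalings 3 falls were called. MiR-192 had 1913, 2097, 1681, 2067 and 1784 CPM in WT TAC, against 2919, 3016, 2673 and 2884 CPM in WT sham, and changed by −0.59 (SE 0.10, adjusted p = 0.000807) with TMM and −0.28 by library totals. MiR-181c, known in the heart for entering mitochondria, had 3362, 3593, 3158, 3434 and 3431 CPM in WT TAC, against 5443, 5327, 4648 and 4852 CPM in WT sham, and changed by −0.58 (SE 0.11, adjusted p = 0.00116) with TMM and −0.27 by library totals. MiR-101a, known to act on the chromatin enzyme Ezh2, had 6596, 6639.9, 4464, 4862 and 4979 CPM in WT TAC, against 10857, 9973, 8006 and 8439 CPM in WT sham, and changed by −0.76 (SE 0.16, adjusted p = 0.00273) with TMM and −0.45 by library totals. In each of the 3 the groups did not overlap. MiR-101a was also called within each library set, at −0.55 in the first and −0.66 in the second.

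MiR-133a, the muscle miRNA that holds the largest share of reads among the falls, had 60511, 69539, 69921, 67637 and 64521 CPM in WT TAC, against 92831, 90386, 78818 and 99193 CPM in WT sham. Its log2 change was −0.44 (SE 0.11, adjusted p = 0.0117) and its groups did not overlap. The same values by library totals gave −0.13 with an adjusted p of 0.378. The other muscle miRNAs had changes near it without passing the test: miR-1 averaged 6247 ± 1104 CPM in WT TAC (SD, n = 5) and 8837 ± 1629 CPM in WT sham (SD, n = 4), miR-499, from Myh7b, averaged 1586 ± 386 CPM in WT TAC (SD, n = 5) and 2380.5 ± 559 CPM in WT sham (SD, n = 4), and miR-133b averaged 61.3 ± 13.8 CPM in WT TAC (SD, n = 5) and 84.0 ± 23.9 CPM in WT sham (SD, n = 4). Of the 7 muscle miRNAs tested 1 rose, miR-208b, and 1 fell, miR-133a, beside 13% and 7.25% of all tested. Their median was −0.44, and by library totals it was −0.13. With the set term 5 of the 7 fell, beside 20.2% of all tested, and 1 rose, beside 18.3%.

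The miR-181 family had 4 tested members with the same seed, of which miR-181a and miR-181c fell, beside 7.25% of all tested. All 4 had changes between −0.59 and −0.37. With the set term all 4 fell, beside 20.2% of all tested. By library totals 1 fell, miR-181c, beside 1.15%. MiR-181a averaged 17835 ± 2410.1 CPM in WT TAC (SD, n = 5) and 26604 ± 4271 CPM in WT sham (SD, n = 4), with a log2 change of −0.58 (SE 0.17, adjusted p = 0.0235). MiR-126-3p, a miRNA of endothelial cells cut from an intron of Egfl7, averaged 6008 ± 889 CPM in WT TAC (SD, n = 5) and 8156 ± 875 CPM in WT sham (SD, n = 4). Its log2 change was −0.44 (SE 0.14, adjusted p = 0.0325) with overlapping groups. The other arm of that hairpin, miR-126-5p, averaged 39349 ± 5969 CPM in WT TAC (SD, n = 5) and 41669 ± 9268 CPM in WT sham (SD, n = 4), with −0.08 (SE 0.26, adjusted p = 0.866). MiR-107, which differs from miR-103 by C22G, fell by 0.44 (SE 0.15, adjusted p = 0.0457), and miR-103 had a log2 change of −0.25 (SE 0.15, adjusted p = 0.273). The other falls were of miR-338-5p (−0.99), miR-582-5p (−0.58), miR-125a-5p (−0.57), miR-203 (−0.46) and miR-101b (−0.42), together with miR-185 (−0.48), miR-151-5p (−0.38) and miR-139-5p (−0.35), which the naming rule did not take and which were named after their values were seen.

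Each library was left out in turn. Of 28 rises named by rule 19 kept their call whichever library was left out, and of 16 such falls 3 did, namely miR-192, miR-181c and miR-101a. The number of falls was 3 without WT sham 6 (1.15%), 5 without WT sham 7 (1.89%) and 6 without WT TAC 20 (2.32%). MiR-30d, miR-30e and miR-133a were lost without any 1 of those 3 libraries, with log2 changes of −0.63 to −0.47, −0.74 to −0.50 and −0.53 to −0.38 and adjusted p up to 0.0876, 0.119 and 0.105. MiR-30c was lost without those 3 or WT TAC 19 (−0.54 to −0.39, adjusted p up to 0.143), and miR-30a without WT sham 6, 7 or 15 or WT TAC 1, 2, 17 or 20 (−0.49 to −0.32, adjusted p up to 0.183). MiR-181a was lost without WT sham 6 or 13 (−0.66 to −0.48, adjusted p up to 0.0788), and miR-338-5p without WT sham 6 (−0.94, adjusted p = 0.0715). MiR-582-5p, miR-125a-5p, miR-203, miR-126-3p, miR-107 and miR-101b were each lost without 4 to 6 of the libraries, with an adjusted p up to 0.278, and none of their changes turned sign.

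Families of related function were described by list (chosen with earlier results of these data known). Of 14 miRNAs known from pressure overload 4 rose, miR-21, miR-208b, miR-214 and miR-222, and 0 fell, with a median log2 change of 0.38, beside 13% that rose, 7.25% that fell and a median of −0.04 over all tested. By library totals 7 of the 14 rose, beside 21.8% of all. Members of that list without a call included miR-195, with 0.13 (SE 0.21, adjusted p = 0.717), and miR-23a, with −0.09 (SE 0.14, adjusted p = 0.708). Of 4 tested inflammation miRNAs miR-21 and miR-146b rose, and miR-155, known from activated leukocytes, had −0.28 (SE 0.14, adjusted p = 0.186) and fell with the set term, by 0.32 on the log2 scale. The miR-29 family, known to act on collagen messages, had changes of −0.47, −0.34 and −0.52 for miR-29a, miR-29b and miR-29c, and 0 of the 3 passed the test. With the set term miR-29a and miR-29c fell (−0.41, adjusted p = 0.00749, and −0.45, adjusted p = 0.00342). No member of the let-7 family (9 tested), of the miR-23, miR-24 and miR-27 group (5 tested) or of the miR-17 to miR-92 group (10 tested) was called. With the set term let-7a, let-7d, let-7f and let-7g fell, with changes between −0.49 and −0.36, and miR-23b rose by 0.27. No member of the miR-17 to miR-92 group was called with it. Of all tested, 20.2% fell and 18.3% rose with that term. The group of miR-10, miR-99, miR-100 and miR-125 had 10 tested, with a median of −0.42. Of these miR-125b-1-3p rose and miR-125a-5p fell, beside 13% and 7.25% of all tested.

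**Figure D4:**
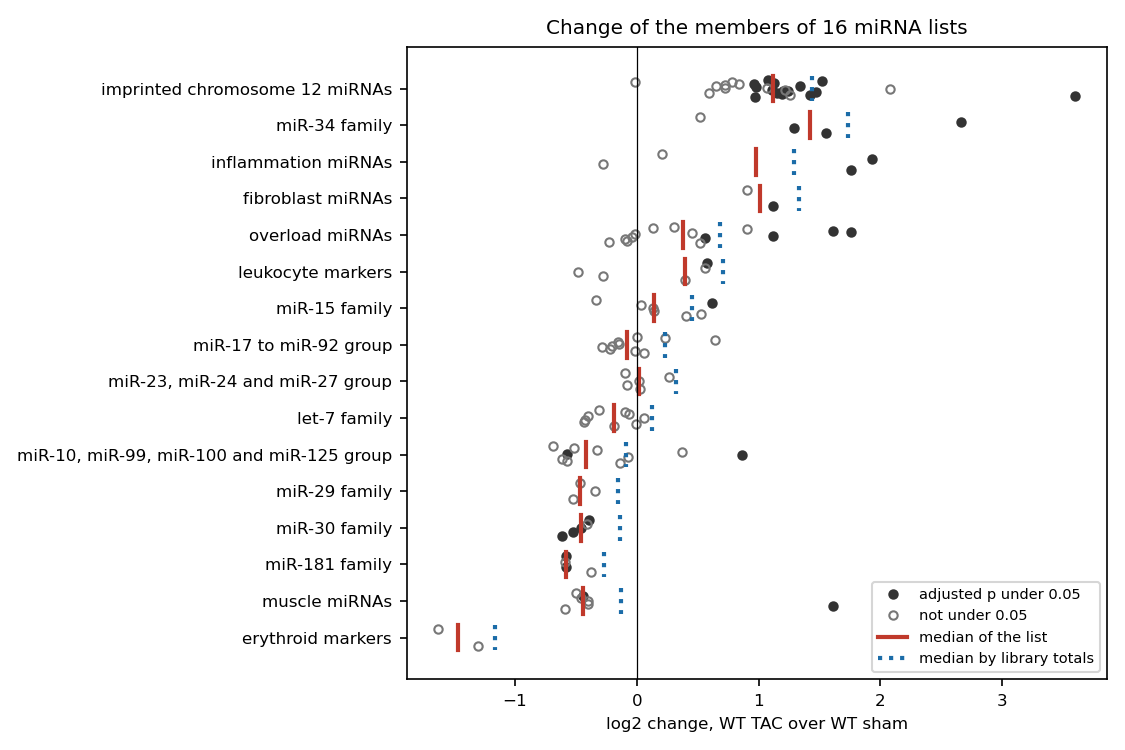
Log2 change in WT TAC over WT sham of each tested member of 16 miRNA lists; filled points have an adjusted p under 0.05, the red line is the list's median and the dotted blue line its median by library totals. By median, the miR-34 family, the chromosome 12 region, the fibroblast list (2 miRNAs) and the inflammation miRNAs lie furthest to the right of 0. The erythroid list (2 miRNAs, 0 called) lies furthest to the left, followed by the miR-181, miR-29, miR-30 and muscle lists. Single members lie on the other side, such as miR-208b of the muscle and miR-155 of the inflammation list. The library totals move every median up.

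Markers of other cells were read beside these changes. Of 5 leukocyte miRNAs 1 rose, miR-142-3p, and 0 fell, beside 13% and 7.25% of all tested. Their summed level ran from 898 to 1141 CPM in WT TAC and from 862 to 1032 CPM in WT sham. MiR-142-5p averaged 462 ± 136 CPM in WT TAC (SD, n = 5) and 313 ± 92.7 CPM in WT sham (SD, n = 4), miR-223 averaged 144 ± 32.3 CPM in WT TAC (SD, n = 5) and 110.0 ± 13.7 CPM in WT sham (SD, n = 4), and miR-150 averaged 279.7 ± 89.8 CPM in WT TAC (SD, n = 5) and 391 ± 129 CPM in WT sham (SD, n = 4). The erythroid miR-451 had 507, 88.3, 182, 114 and 125 CPM in WT TAC, against 543, 681, 678 and 105 CPM in WT sham, and miR-144, of the same transcript, had 52.9, 14.5, 20.1, 13.6 and 11.8 CPM in WT TAC, against 87.6, 107, 78.4 and 9.15 CPM in WT sham. In both, WT TAC 1 was high among the WT TAC hearts and WT sham 15 low among the WT sham hearts, the groups overlapped and the changes, −1.30 (SE 0.82, adjusted p = 0.289) and −1.63 (SE 0.87, adjusted p = 0.214), did not pass the test. The smooth muscle miR-143 averaged 145189 ± 35036 CPM in WT TAC (SD, n = 5) and 181266 ± 39159 CPM in WT sham (SD, n = 4). The neuronal miR-9 averaged 30.5 ± 7.24 CPM in WT TAC (SD, n = 5) and 47.6 ± 7.66 CPM in WT sham (SD, n = 4), with −0.65 (SE 0.23, adjusted p = 0.063). With the set term miR-142-5p rose too, and miR-150, miR-155, miR-143 and miR-9 fell, with changes between −0.67 and −0.32. Of all tested, 18.3% rose and 20.2% fell with it. The part of blood or of other cells in the results was not tested.

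A few miRNAs held most reads. The 10 most abundant took 72.7% ± 0.658 of counted reads in WT TAC (SD, n = 5) and 74.2% ± 1.43 in WT sham (SD, n = 4), a difference of −1.50 percentage points (exact permutation test, two-sided, p = 0.0873; the smallest p this design allows is 0.00794). MiR-22 alone held 18.1% ± 3.20 of reads in WT TAC and 18.4% ± 2.00 in WT sham, and miR-27b 7.74% ± 0.812 in WT TAC and 6.13% ± 1.04 in WT sham (SD, n = 5 and 4). These shares are not TMM-scaled. With TMM the log2 change was −0.33 for miR-22 (SE 0.19, edgeR adjusted p = 0.236) and 0.03 for miR-27b (SE 0.18, edgeR adjusted p = 0.936). MiR-378, also among the 10, changed by −0.63 with TMM (SE 0.22, edgeR adjusted p = 0.0542). With the set term both miR-22 and miR-378 fell, beside 20.2% of all tested. The 20 most abundant took 86.7% ± 0.0931 in WT TAC and 87.2% ± 0.410 in WT sham, −0.501 points, and every WT TAC library was below every WT sham library (exact permutation test, two-sided, p = 0.00794, the smallest it can give). The summed share of the muscle list was 8.71% ± 0.494 in WT TAC and 9.45% ± 0.629 in WT sham (exact permutation test, two-sided, p = 0.0794). For the 5 most abundant the difference was −0.581 points (exact permutation test, p = 0.587). Without WT sham 15 the difference for the 10 most abundant was −2.19 points (exact permutation test, p = 0.0179, the smallest it can give). Without any 1 of the other WT libraries it was −1.78 to −1.10 points (exact permutation test, p from 0.143 to 0.232). Within the first set it was −2.76 points (exact permutation test, p = 0.333) and within the second −0.352 (exact permutation test, p = 0.7). The smallest p values these sets allow are 0.333 and 0.1.

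The 2 library sets share no library, so each repeats the comparison. Across the 262 tested miRNAs the log2 changes in the first and the second set had a Pearson r of 0.642 and a Spearman rho of 0.676, and 195 (74.4%) had the same sign. These are descriptions across miRNAs, which are not independent replicates. In the first set alone 29 miRNAs rose (11.1%) and in the second 31 rose (11.8%), with 21 in common, which is 72.4% of the first and 67.7% of the second. All 29 of the first had a positive change in the second, and all 31 of the second had one in the first, while 53.4% and 53.1% of all tested miRNAs were positive in the same sets. In the first set 9 fell (3.44%) and in the second 8 (3.05%), with 2 in common. All 9 of the first had a negative change in the second, and 5 of the 8 of the second had one in the first. MiR-146b changed by 2.10 and 2.03, miR-208b by 1.73 and 1.83, and miR-34c by 1.99 and 1.41 in the first and second set.

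**Figure D5:**
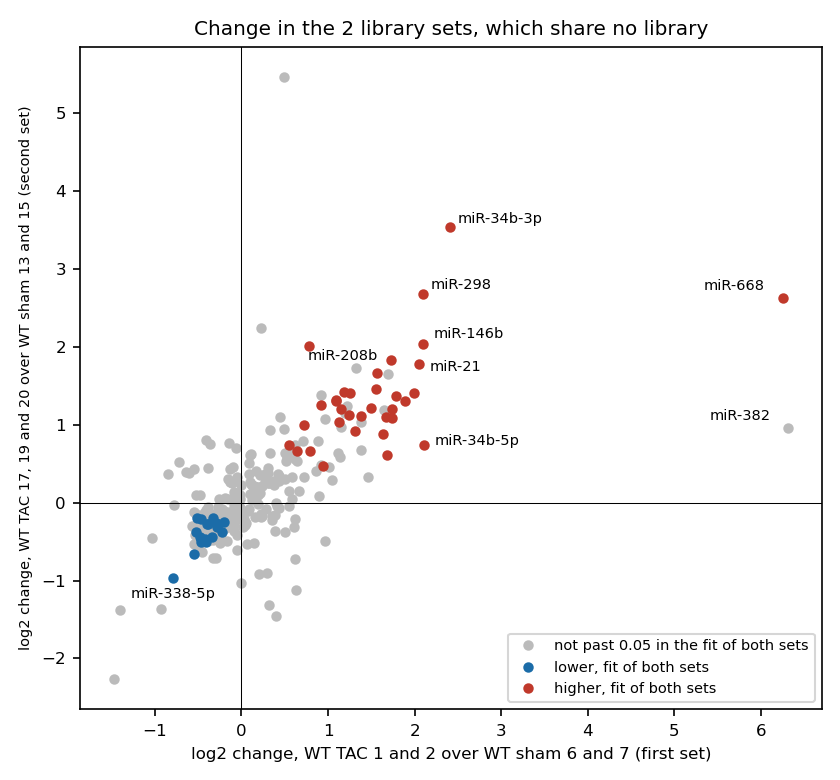
Log2 change of each of the 262 miRNAs in WT TAC over WT sham, in the first library set (x axis) and the second (y axis); coloured points have an adjusted p under 0.05 in the fit of both sets. Called rises lie in the upper right and called falls in the lower left. The calls use the same libraries as the axes, so this placing is largely set by the selection. MiR-668 and miR-382, at the far right, had no read in WT sham 6 and 7, so their values there depend on the fit's prior count.

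Both arms of 29 hairpins were tested, and in 21 the arms had changes of the same sign. MiR-434-5p rose by 1.19 (SE 0.28, adjusted p = 0.00743), and miR-434-3p, with 0.59 (SE 0.33, adjusted p = 0.234), did not pass the test. MiR-409-3p rose by 1.11 (SE 0.21, adjusted p = 0.00116), and miR-409-5p had 1.22 (SE 0.43, adjusted p = 0.0572). The arms of miR-125a went opposite ways in sign: miR-125a-5p averaged 4482 ± 795 CPM in WT TAC (SD, n = 5) and 6668 ± 1123 CPM in WT sham (SD, n = 4), and miR-125a-3p averaged 3.71 ± 0.642 CPM in WT TAC (SD, n = 5) and 2.87 ± 0.682 CPM in WT sham (SD, n = 4).

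Messenger RNA from 3 of the WT TAC hearts and the 4 WT sham hearts allowed the genes that host these miRNAs to be read, in RPKM, reads scaled to gene length and library size. Of 37 host genes listed 29 were measured, and 7 were higher and 1 lower by limma (27.6%, against 16.5% of all 8987 genes). Vmp1, whose span holds miR-21, stood at 11.1, 14.9 and 11.1 RPKM in WT TAC 1, 17 and 19, against 9.9, 13.6, 11.3 and 13.6 RPKM in WT sham 6, 7, 13 and 15. Its log2(RPKM + 0.5) change was 0.03 (SE 0.15, limma adjusted p = 0.927), beside 1.76 for the miRNA. Myh7 had 940.5, 789.3 and 671.2 RPKM in WT TAC, against 1041, 623.9, 642.7 and 696.1 RPKM in WT sham. Its change was 0.11 (SE 0.23, limma adjusted p = 0.788), beside 1.61 for miR-208b. How the authors' mapping treated reads that match both Myh7 and Myh6 is not given in the sources used here. The split of reads between these genes, and with it the change of each, is therefore uncertain. Myh6 fell to 2707, 2070 and 1886 RPKM in WT TAC, against 3856, 3265, 3296 and 3686 RPKM in WT sham, a change of −0.68 (SE 0.13, limma adjusted p = 0.00574), beside −0.40 for miR-208a-3p. By quantile normalization the Myh6 change was −0.38 and its call was lost (limma adjusted p = 0.0744), and centred on library medians it was −0.87 (limma adjusted p = 0.00233).

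Host and miRNA both rose in 2 of the pairs, and both hosts depend on the scaling. Wwp2, host of miR-140, had 5.6, 6 and 4.8 RPKM in WT TAC, against 3.5, 3.1, 3.4 and 3.7 RPKM in WT sham, a change of 0.60 (SE 0.12, limma adjusted p = 0.00674), beside 0.56 for miR-140. Smc4, a condensin subunit and host of miR-15b, had 6.2, 6.9 and 10.6 RPKM in WT TAC, against 2.5, 4.9, 4.5 and 4.4 RPKM in WT sham, a change of 0.88 (SE 0.22, limma adjusted p = 0.0232). By quantile normalization neither host kept its call: Wwp2 had 0.35 (limma adjusted p = 0.0746) and Smc4 0.67 (limma adjusted p = 0.093). Centred on library medians Wwp2 was called at 0.41 (limma adjusted p = 0.0331) and Smc4 was not (0.69, limma adjusted p = 0.073). Mest, an imprinted gene and host of miR-335, rose to 7.4, 8.6 and 9.3 RPKM in WT TAC, against 2.8, 5.2, 3 and 3.3 RPKM in WT sham. Its change was 1.16 (SE 0.24, limma adjusted p = 0.0092), while miR-335-3p and miR-335-5p had changes of 0.81 and −0.10 and did not pass the test. Lpp, 2010111I01Rik and Ctdsp2 also rose, with changes of 0.85, 0.69 and 0.44. MiR-28 from Lpp had −0.05 and miR-26a from Ctdsp2 had −0.41, without a call. From 2010111I01Rik, miR-23b, miR-27b and miR-24 had 0.26, 0.03 and 0.02 and no call, although miR-23b was called with the set term. MiR-26a and miR-24 each have another hairpin on a different chromosome, so their counts do not show the product of the host named here alone. The seventh, Dnm1, lies opposite a miRNA hairpin and had a change of 1.03. Over all genes the log2 change had a median of 0.17. By quantile normalization 4 of the 29 measured host genes were called, beside 10.3% of all genes. Of the 8 host genes above, 3 kept their call, Lpp, Dnm1 and Mest. The call gained was Pank1, host of miR-107, lower at −0.62 (limma adjusted p = 0.0314) against −0.46 (limma adjusted p = 0.0734) without that step. Centred on library medians 6 of the 29 were called, beside 13% of all genes. Without WT TAC 17, 5 of the 8 host genes kept their call.

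The TAC response of WT hearts was set against that of caPI3Kalpha hearts by a test of the difference itself. Of 262 miRNAs 2 differed (0.763%), miR-21 and miR-146b, and 39 had an unadjusted p under 0.05. MiR-21 averaged 5170 ± 1382 CPM in caPI3Kalpha TAC (SD, n = 4) and 4998 ± 1102 CPM in caPI3Kalpha sham (SD, n = 3), a log2 change of 0.05 (SE 0.26, edgeR adjusted p = 0.922). The difference of the changes, caPI3Kalpha minus WT, was −1.71 (SE 0.34, edgeR adjusted p = 0.0216). MiR-146b averaged 831.8 ± 202.7 CPM in caPI3Kalpha TAC (SD, n = 4) and 533.1 ± 101.3 CPM in caPI3Kalpha sham (SD, n = 3), a log2 change of 0.64 (SE 0.20, edgeR adjusted p = 0.0504), and the difference was −1.29 (SE 0.26, edgeR adjusted p = 0.0216). MiR-409-3p and miR-410 had differences of −1.29 and −0.96, each with an edgeR adjusted p of 0.052. DESeq2 called 6 differences and a term for the library set 14. Left out 1 at a time, WT sham 6 left 2 calls, WT sham 15 left 5 and each of the other 7 WT libraries left 0.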

How the data were processed

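Small RNA libraries were sequenced single-end on an Illumina HiSeq, per the labels' protocols. The authors deposited raw read counts on miRBase v.16 miRNAs, per the file headers. Messenger RNA values are RPKM, as deposited by the authors for genes that reach 3 RPKM in at least 1 library. The submitters' processing notes list CASAVA 1.6, Bowtie, Partek 6.5 and the build mm9 without their roles, and the sources used here give no mapping settings.

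Counts were tested with edgeR 4.0.16 in R 4.3.3 (quasi-likelihood, TMM factors, filterByExpr) in 1 model of 4 groups over 16 libraries, two-sided, with Benjamini-Hochberg adjustment over 262 miRNAs and a threshold of 0.05. RPKM were tested with limma 3.58.1 on log2(RPKM + 0.5), which understates changes of low genes; 261 blank lines were left out. P-values measure the spread between libraries of a group, which in the main fit, without a set term, includes the difference between library sets. Counts of any 2 WT libraries of a group gave a chi-square of at least 48.5 for each degree of freedom, the lowest for WT sham 6 and 7 and at least 133 for every other pair. Pairs within a library set gave up to 393, and pairs across the sets 545 to 1245. All exceed counting noise, which does not show that libraries come from separate animals. The test was also run on simulated counts with 20 miRNAs changed at each size, and the outcome is not given here. Alternatives were DESeq2 1.42.0, library totals, other filters, set terms, single sets, the WT groups alone and leaving out each library; the term for the mRNA sets was added after the data were seen.

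RefSeq tables (GRCm38.p6) matched 325 of 421 names to a hairpin. Table names without an arm were given their RefSeq arm by hand. For mRNA, library sets were read from the sign of principal component 1, are in no label and place WT sham 7 otherwise than the miRNA sets do. Intervals are at 95% and cover counting error only. The miRNAs, lists and naming rule were chosen with earlier results of these data known. The rule takes the 12 largest rises and falls past the threshold with no overlap between groups, 6 or fewer members of each list by p, known heart miRNAs, the 10 most abundant, arms and neighbours, the 6 smallest p of the difference between genotypes, and all measured host genes.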

Additional observations from a re-analysis of the deposited data

Results flagged for a closer look

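In 250 groups of 4 or 5 libraries, of which chance flags about 1 in 20, 13 held a library that stood apart by Dixon's test, all in TMM-scaled CPM. WT sham 13 was high for miR-132 at 114.6 (others 71.5 to 74.6), miR-142-3p at 45.6 (29.2 to 31.4), miR-15b at 60.8 (44.8 to 45.6) and miR-341 at 9.80 (5.27 to 5.89), and for miR-668 at 0.676, where the other WT sham libraries had no read. WT TAC 1 was high for miR-130b at 15.2 (9.38 to 10.9), for the erythroid miR-144 at 52.9 (11.8 to 20.1) and for miR-451 at 507.4 (88.3 to 182.1). WT TAC 2 was high for miR-30d at 22938 (17831 to 19310) and miR-503 at 3.04 (0.81 to 1.25), and low for miR-18a at 2.54 (4.99 to 5.90). WT TAC 19 was low for miR-145 at 512.6 (617.3 to 655.5), and WT TAC 20 for miR-23a at 1078 (1295 to 1370.1).

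The response to TAC differed between genotypes by a test of the difference for miR-21 (log2 difference −1.71, caPI3Kalpha minus WT, edgeR adjusted p = 0.0216) and for miR-146b (−1.29, edgeR adjusted p = 0.0216). Both were higher in 5 of 5 WT TAC than in any WT sham heart.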

How the results depend on the processing

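No result past its threshold changed direction under any alternative. The 34 higher calls were 57 by library totals, and 21 to 33 when 1 library was left out. The 19 lower calls were 3 by library totals, 6 with no filter, 3 at a mean of at least 10 CPM, 53 with a term for the library set, 9 in the first set and 8 in the second alone, and 3 to 22 when 1 library was left out. The 2 differences between genotypes were 6 by DESeq2, 4 by library totals, 4 at a mean of at least 10 CPM, 14 with the set term, 1 in the second set alone, and 0 to 5 when 1 library was left out. For the 10 most abundant miRNAs the difference in share ran from −2.19 to −1.10 points when 1 library was left out. It was −0.581 for the 5 most abundant and −0.501 for the 20 most abundant. The Pearson r between the sets was 0.647 by library totals and 0.729 at a mean of at least 10 CPM. The count of 8 host genes was 3 at a mean RPKM of at least 5, 4 by quantile normalization (3 of the 8, and Pank1), 17 with a term for mRNA sets read from the data's first principal component (chosen after seeing the data), and 5 to 11 when 1 library was left out. The causes were not tested. No paired analysis was possible because WT TAC and WT sham libraries share no number. Low counts limit miR-668, miR-34b-3p and miR-3096-5p.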
